A study of Rattus norvegicus with 9 samples.

Results

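MBD3 peaks on rat chromosomes 2, 13, 16, 17 and 18 were described, the autosomes picked because they took a smaller share of the peak lists of stimulated than of sham-operated rats. All entries of the 7 deposited lists on these 5 chromosomes were taken, except those with a summit at chr13:38000001-39000000. This gave 59405 of 246164 deposited entries (24.1%), 8490, 3670 and 3043 in sham rats 1 to 3 and 1674, 26835, 587 and 15106 in stimulated rats 1 to 4. The chromosomes were chosen by these measured shares of peaks per list, so differences between the groups in the number or share of peaks are given here as descriptions and carry no test. Tests were kept for comparisons of these chromosomes with the other autosomes inside each rat. Their p-values refer to the spread of the within-rat differences over the 7 rats. For peaks shared between rats an overlap counts for both rats, so those 7 values are not independent. Sharing and close neighbours also depend on the number of peaks, the value that chose the chromosomes, so nothing is read from their p-values.

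MBD3 is a subunit of NuRD, a complex that joins histone deacetylase and nucleosome remodelling activities. Unlike its relative MBD2, mammalian MBD3 binds methylated CpG weakly, and NuRD that contains it is found at promoters and enhancers as well as in more compact chromatin. In neurons, NuRD takes part in switching activity-dependent genes off.

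The series asked whether MBD3 binding differs between stimulated and sham-operated animals in a focal stimulation model of temporal lobe epilepsy. Chromatin came from dissected entorhinal, perirhinal and piriform cortex with the amygdala of male Sprague-Dawley rats, so each list averages over the cell types of these areas. All 7 rats carried electrodes in the left lateral amygdala. In the 4 stimulated rats pulses of 400 µA were given for 20 min to evoke status epilepticus, which was stopped 1.5 h later with diazepam at 20 mg/kg. The 3 sham-operated rats had the surgery alone, and tissue was collected 14 days after stimulation.

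The stimulated libraries were deeper than the sham libraries, with 4812579 to 17960510 against 2436208 to 3668143 ChIP tags after filtering. Each group's lists were called against that group's own input, of 33279049 tags for stimulated and 5241067 for sham rats. Depth, input, diazepam and stimulation cannot be told apart. The list of stimulated rat 1 stood apart: 0.0714% of the sham rat 1 intervals on the 5 chromosomes met one of its intervals (6 of 8409, exact Clopper-Pearson 95% interval 0.0262 to 0.155%), against 47.0% for stimulated rat 2. Stimulated rat 3 had the shortest list. Results that rest on these rats are therefore also given without them.

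Together the 5 chromosomes held a smaller part of every stimulated list than of any sham list. Shares are percentages of a list's entries on chromosomes 1 to 20 and X, without the omitted window. They were 26.4%, 26.2% and 25.1% in sham rats 1 to 3 and 17.7%, 24.5%, 21.8% and 23.3% in stimulated rats 1 to 4. The means were 25.9% ± 0.665 (SD, n = 3) and 21.8% ± 2.94 (SD, n = 4). The lowest sham share, that of sham rat 3, had an exact 95% interval of 24.3 to 25.9%, which overlapped the interval of 24.2 to 24.7% of stimulated rat 2. These intervals cover counting error only. Stimulated rat 1 lay farthest from the sham rats, and stimulated rat 2, the longest list, lay closest to them.

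Chromosome 2 carried 2.28 of the 4.07 percentage points by which the means differed, and 1.41 of 2.70 points without stimulated rat 1. It held 10.2%, 10.3% and 9.52% of the sham lists and 5.08%, 9.17%, 8.09% and 8.45% of the stimulated lists. The mean stimulated share was 0.771 times the sham mean, and 0.859 times without stimulated rat 1. Without chromosome 2 the other 4 held 16.2%, 15.9% and 15.6% in sham rats and 12.6%, 15.3%, 13.7% and 14.8% in stimulated rats, so the groups were still apart.

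**Figure D1:**
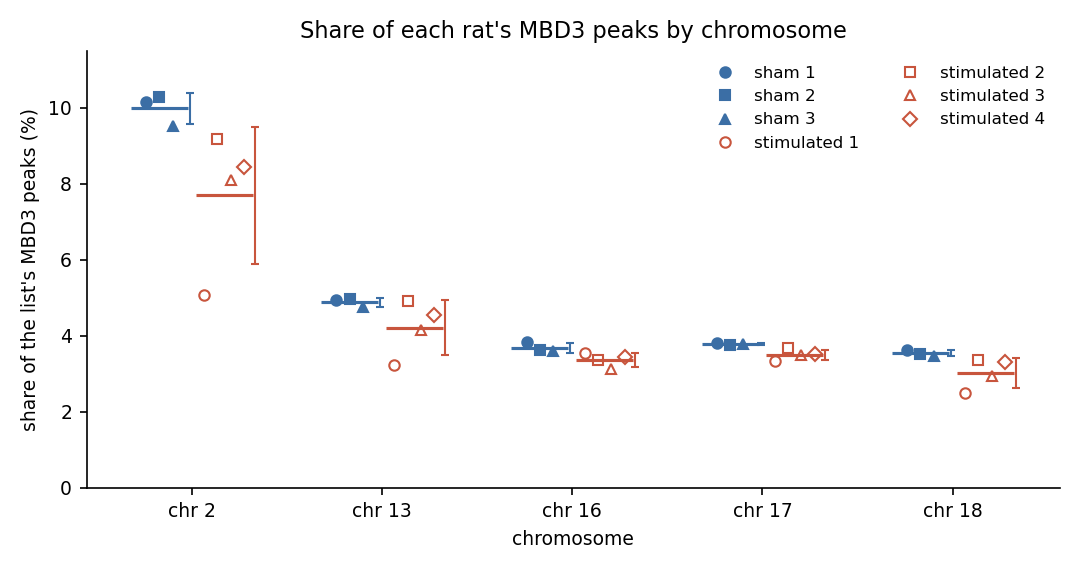
Share of each rat's MBD3 peaks (y axis, percent of entries on chromosomes 1 to 20 and X) on the 5 chromosomes (x axis). Points are rats, horizontal lines group means and error bars SD (n = 3 sham, n = 4 stimulated). On chromosome 13 the highest stimulated share, 4.91%, lies above the lowest sham share, 4.75%.

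In percentage points chromosomes 16, 17 and 18 differed by far less. Their mean stimulated shares were 0.915, 0.925 and 0.855 times the sham means, against 0.771 on chromosome 2. Without stimulated rat 1 these ratios were 0.899, 0.939 and 0.903, against 0.859. Chromosome 18 held 3.63%, 3.53% and 3.47% in sham rats against 2.51%, 3.35%, 2.93% and 3.31% in stimulated rats. Chromosome 17 held 3.82%, 3.77% and 3.78% against 3.34%, 3.67%, 3.49% and 3.52%. Chromosome 16 held 3.83%, 3.62% and 3.60% against 3.55%, 3.36%, 3.12% and 3.45%. The lowest sham and highest stimulated lists were 0.113, 0.102 and 0.0437 percentage points apart on chromosomes 18, 17 and 16. Each of these separations, and that of chromosome 2, was seen without any 1 of the 7 rats. Leaving out a rat can only keep or widen such a gap, so nothing is read from this.

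Chromosome 13 went against its selection once the omitted window was gone. Its shares were 4.94%, 4.96% and 4.75% in sham rats and 3.23%, 4.91%, 4.16% and 4.55% in stimulated rats, so the lowest sham minus the highest stimulated share was −0.151 points. With that window, as deposited, every stimulated share was below every sham share. Without it, the separation was seen when sham rat 3 or stimulated rat 2 was left out and not without any other rat. Just outside the selected group this gap was −0.0911 points on chromosome 15 and −0.125 points on chromosome 14. On chromosome 11 it was 0.00324 points, with overlap in the lists as deposited.

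In peaks per Mb, the 5 chromosomes were the denser part of each sham list. Sham rats 1 to 3 had 12.6, 5.46 and 4.53 entries per Mb there and 11.2, 4.91 and 4.31 per Mb on the other 15 autosomes. Stimulated rats 1, 3 and 4 had 2.49, 0.873 and 22.5 per Mb there and more elsewhere, at 3.71, 1.01 and 23.8. In stimulated rat 2 the densities were 39.9 and 39.4 per Mb. The longest list thus kept the order of the sham lists.

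Chromosomes 2, 13 and 18 are among the autosomes poorest in genes, and chromosomes 16 and 17 lie mid-rank. Gene counts are over whole chromosomes of the GRCr8 assembly, a build other than that of the lists. The 5 chromosomes hold 5.55 to 7.45 protein-coding genes per Mb (median 6.17). The other autosomes hold 5.89 to 16.6 (median 9.72). Counted from the poorest, chromosomes 2, 13 and 18 rank 1, 3 and 5 of 20, and chromosomes 16 and 17 rank 9 and 10. Across the 20 autosomes, gene density and the ratio of stimulated to sham share had a Spearman's rho of 0.838. It is a description only, because all 20 points share the same 7 lists and the ratio reflects the shares that chose these chromosomes. Outside the set, chromosome 6 ranks 2 with a ratio of 1.03. Chromosomes 11, 14 and 15 rank 4, 6 and 7, at 0.868, 0.886 and 0.810. On 13 of the 20 autosomes, peaks reach past the last gene of that assembly.

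Split into windows of 1 Mb by summit, the 5 chromosomes gave 676 windows. In 72 of them (10.7%) every stimulated share was below every sham share, and in 28 (4.14%) every stimulated share was above. Over all 2758 autosomal windows these patterns took 8.48% and 9.28%. The contrast chose the chromosomes, so nothing is read from these shares. The mean stimulated share was below the mean sham share in 429 windows and above it in 224. Lower windows numbered 32 of 286 on chromosome 2, 9 of 118 on chromosome 13, 12 of 91 on chromosome 16, 5 of 93 on chromosome 17 and 14 of 88 on chromosome 18.

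Many of these windows hold few peaks. Stimulated rat 3 had no entry in 293 of the 676 windows and stimulated rat 1 none in 215, against 23 to 37 in the other lists. Of the 72 lower windows, 46 were empty in stimulated rat 3, 34 in stimulated rat 1 and 24 in both. For stimulated rats 2 and 4 alone, 113 windows were lower and 71 higher. Among peaks that reached a −log10 q of 3, 58 windows were lower, 26 of them among the 72. In equal lists of the 2677 strongest entries per rat, 18 were lower and 11 higher.

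The lower windows were mostly scattered. They formed 60 runs, of which 49 were single windows. The longest run, of 3 windows, was chr13:68000001-71000000, with 39, 25 and 16 entries in sham rats and 2, 106, 1 and 49 in stimulated rats. The other 10 runs were of 2 windows each.

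The largest difference of any window was on chromosome 17 between 59 and 60 Mb (chr17:59000001-60000000). It held 89, 66 and 46 entries in sham rats 1 to 3 and 20, 101, 1 and 60 in stimulated rats 1 to 4. As shares this is 0.276%, 0.470% and 0.380% against 0.212%, 0.0920%, 0.0371% and 0.0925%. The sham mean was 3.47 times the stimulated mean, although stimulated rat 2 had the most entries in number. It was the fullest window of these chromosomes in all 3 sham rats and in stimulated rats 2 and 4. Its entries crowded together, with 24 of 71 distinct intervals of sham rat 1 and 28 of 88 of stimulated rat 2 in its first 100 kb, while stimulated rat 1 had 13 of 19 at chr17:59500001-59600000.

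Chromosome 17 owed its separation to that window. Without it, sham shares of the chromosome were 3.54%, 3.30% and 3.40% and stimulated shares 3.13%, 3.58%, 3.45% and 3.43%. The difference of the means dropped from 0.284 to 0.0169 points, and the groups overlapped. On chromosome 18 the groups overlapped after 3 windows were removed, and on chromosomes 2 and 16 after 5. On chromosome 2 the mean difference was still 1.83 points by then, against 2.28 at the start. Windows were removed in order of their difference, which makes the groups approach each other by construction.

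**Figure D2:**
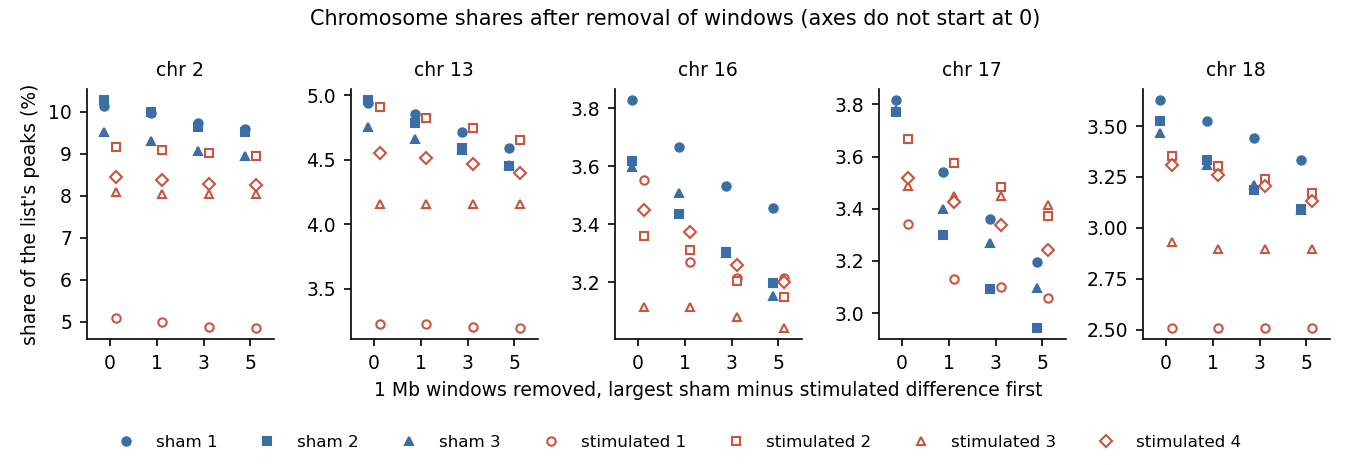
Share of each list's peaks (y axis, percent, each panel on its own scale not starting at 0) on each chromosome after 0, 1, 3 or 5 windows of 1 Mb with the largest sham minus stimulated difference were removed (x axis). Points are rats. On chromosome 17 the groups mix after 1 window, where stimulated rat 2 (3.58%) exceeds every sham rat, and on chromosome 2 stimulated rat 1 stays lowest at 4.85% after 5 windows.

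The second largest difference lay at the start of chromosome 2. In chr2:1-1000000 there were 58, 38 and 25 sham entries and 9, 73, 1 and 46 stimulated entries, or mean shares of 0.219% ± 0.0467 (SD, n = 3) and 0.0674% ± 0.0238 (SD, n = 4). Beside it, chr2:1000001-2000000, with a smaller difference of 0.0998 points, held 39, 20 and 15 against 3, 50, 0 and 26. Every sham share was above every stimulated share in both windows.

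The other named windows lay inside the chromosomes, with differences of 0.117, 0.110 and 0.0873 points in the order given. In chr18:38000001-39000000 the counts were 33, 27 and 19 in sham rats and 0, 54, 1 and 32 in stimulated rats, with 14 of 23 distinct intervals of sham rat 1 in the first 100 kb. In chr2:180000001-181000000 they were 39, 30 and 15 against 8, 43, 0 and 31. In chr13:12000001-13000000 they were 26, 25 and 11 against 0, 86, 0 and 25. There the share of stimulated rat 2, 0.0784%, was just under the 0.0807% of sham rat 1.

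These 6 windows together held 0.882%, 1.47% and 1.08% of the sham lists and 0.423%, 0.371%, 0.111% and 0.339% of the stimulated lists. Their difference of means, 0.832 points, is part of the 4.07 points by which the 5 chromosomes differed in all. The remainder was spread thinly over the other windows.

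**Figure D3:**
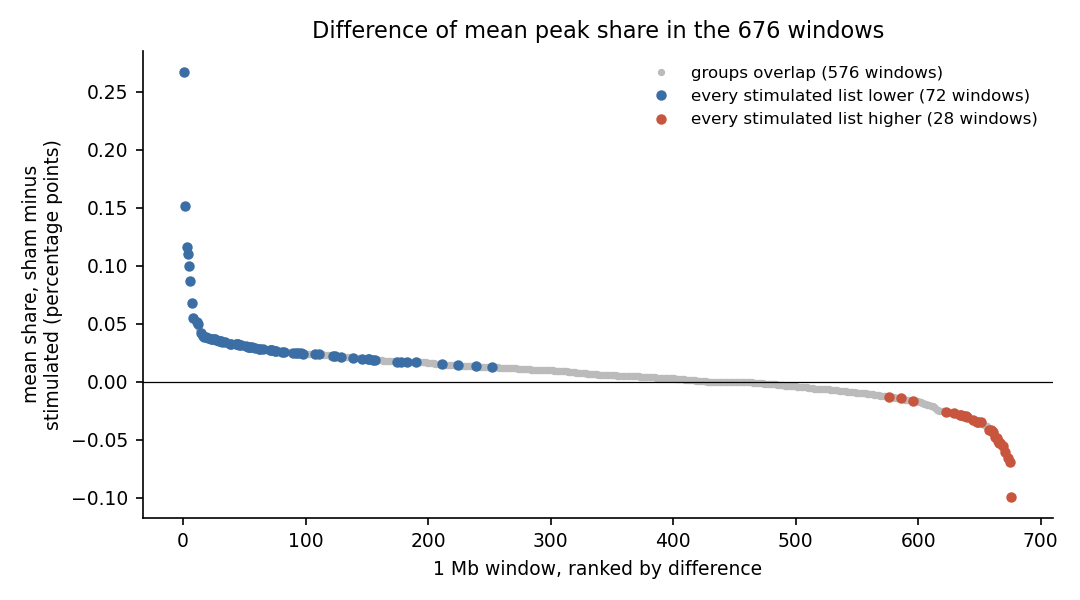
Difference of mean peak share, sham minus stimulated (y axis, percentage points of a list), in the 676 windows of 1 Mb ranked by that difference (x axis). Each point is a window, coloured where all stimulated lists lay below (72 windows) or above (28 windows) all sham lists. The window with the largest value, 0.267 points, stands alone and most others lie close to 0.

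Some windows lay the other way. On chromosome 16 between 20 and 21 Mb (chr16:20000001-21000000) there were 4, 0 and 1 entries in sham rats and 30, 30, 1 and 27 in stimulated rats. The neighbouring chr16:19000001-20000000 held 7, 3 and 1 against 18, 42, 2 and 27. In chr13:57000001-58000000 the counts were 10, 2 and 4 against 14, 52, 3 and 40, and in chr17:15000001-16000000 they were 9, 2 and 4 against 9, 63, 3 and 51. Shares of all stimulated lists were above those of all sham lists in each. In the first window stimulated rat 1 had 0.317% of its list, against 0.0273% to 0.0416% in the other stimulated rats. Of 86 merged regions in the first window 79 came from 1 rat.

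At 10 Mb, 53 of 69 segments with peaks had a lower mean stimulated share, and 46 had when stimulated rat 1 was left out. All stimulated lists were below all sham lists in 14 segments and above in 6, where 17.6% and 20.9% of the 278 autosomal segments were so. The ratio of stimulated to sham mean share was lowest in the first 10 Mb of chromosome 2, at 0.423 (0.643% ± 0.0840 against 0.272% ± 0.102, SD, n = 3 and 4). It was 0.432 in the first 10 Mb of chromosome 13, 0.529 on chromosome 16 from 30 to 40 Mb, 0.538 on chromosome 17 from 50 to 60 Mb and 0.671 on chromosome 18 from 30 to 40 Mb. In the last of these the groups overlapped. Without stimulated rat 1 the ratios were 0.444, 0.517, 0.630, 0.501 and 0.763 in the order given.

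Every chromosome of the set also had segments with a larger mean stimulated share. Chromosome 17 from 10 to 20 Mb held 0.277% ± 0.00708 (SD, n = 3) of the sham and 0.609% ± 0.275 (SD, n = 4) of the stimulated lists, a ratio of 2.20, or 1.71 without stimulated rat 1. Ratios of 1.60 and 1.45 were seen on chromosome 13 from 50 to 60 Mb and on chromosome 2 from 200 to 210 Mb, where all stimulated lists were higher. Chromosome 18 from 70 to 80 Mb and the first 10 Mb of chromosome 16 had ratios of 1.37 and 1.32, with overlapping groups. Without stimulated rat 1 the ratios of these segments on chromosomes 13, 2, 18 and 16 were 1.46, 1.36, 1.17 and 1.14. The smaller share of these chromosomes was therefore not spread evenly along them.

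No list had a peak in 23 windows. Of these, 18 lay side by side at chr2:22000001-40000000, where the last summit before and the first after were 19.6 Mb apart. The windows at its edges were nearly empty too, with 2 entries over all 7 lists between 21 and 22 Mb and 4, 4 and 1 sham and 0, 10, 0 and 7 stimulated entries between 40 and 41 Mb. A second desert of 4 windows was chr13:7000001-11000000, with 5.56 Mb between summits, and a single window was chr17:3000001-4000000, with 2.45 Mb. Chromosomes 16 and 18 had no empty window. The other autosomes had 105 empty windows of 2082.

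Peaks were crowded in 3 windows, defined as holding at least 5 times the list's mean count per window in at least 2 lists. The window chr17:59000001-60000000 met this in all 3 sham rats and stimulated rat 1, at 7.09, 12.2, 10.2 and 8.08 times the mean, and in the other stimulated rats reached 2.54, 1.15 and 2.69 times. The first Mb of chromosome 2 met it in sham rats 2 and 3, at 5.55 times the mean in the latter, and stood at 4.62 times in sham rat 1. The window chr17:91000001-92000000 met it in stimulated rats 1 and 3, at 8.88 and 5.76 times. In the other lists that window stood at 0.932 to 1.75 times, so it was not crowded without stimulated rat 1 or 3. Counts there were 22, 7 and 6 in sham rats and 22, 37, 5 and 28 in stimulated rats.

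Another 17 windows were crowded in 1 list. Stimulated rat 1 had 17 crowded windows in all, and the longest lists, stimulated rats 2 and 4, had none. The 10 fullest windows held 11.9% of the entries of stimulated rat 1, 5.15% to 7.52% in the sham lists and 7.16%, 3.02% and 3.48% in stimulated rats 3, 2 and 4.

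Crowded windows held more entries on raised local background than the chromosomes as a whole, to a degree that differed between windows and lists. The background implied by pileup and fold was taken as raised above 2 times the list's median. Such entries made up 28.6% ± 4.50 (SD, n = 3) of the crowded windows in sham rats and 54.9% ± 12.1 (SD, n = 4) in stimulated rats, against 2.35% ± 0.406 and 2.63% ± 2.80 over all entries of the 5 chromosomes. In chr17:91000001-92000000 all 22 entries of stimulated rat 1 were of this kind, with a median pileup of 89.5 tags at a median fold of 2.22. In chr17:59000001-60000000 it was 32 of 89, 26 of 66 and 15 of 46 sham entries and 2 of 20, 56 of 101, 1 of 1 and 36 of 60 stimulated entries. The first Mb of chromosome 2 was crowded in sham rats 2 and 3. There it was 7 of 58, 4 of 38 and 1 of 25 sham entries. In stimulated rats it was 4 of 9, 30 of 73, 0 of 1 and 19 of 46 entries. In chr13:12000001-13000000, which was not crowded, no entry of any list was.

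With entries on raised background left out, the shares of the 5 chromosomes were 26.6%, 26.7% and 25.6% in sham rats and 17.6%, 24.5%, 22.4% and 23.4% in stimulated rats. Chromosomes 2, 16, 17 and 18 separated the groups and chromosome 13 did not. There were then 77 lower windows, 67 of them among the 72, but chr17:59000001-60000000 was no longer one. The other 5 windows named above were. Among peaks that reached a −log10 q of 3, chr17:59000001-60000000 was again not lower and the other 5 were. In equal lists of the strongest entries 2 of the 6, chr17:59000001-60000000 and chr2:180000001-181000000, were lower and the other 4 were not.

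No difference in peak strength between these chromosomes and the others passed the test. Strength was read from fold enrichment over local background, pileup in tags at the summit, and −log10 q, all of the authors' peak caller. Median fold was 4.64, 4.93 and 5.02 in sham rats, the same values as on the other autosomes. It was 3.96, 5.12, 4.74 and 4.73 in stimulated rats against 4.07, 5.02, 4.65 and 4.55. The mean within-rat difference was 0.0101 on the log2 scale (SD 0.0307, higher in 3 of 7 rats, lower in 1 and equal in 3, exact sign-flip permutation p = 0.5, adjusted p = 0.75). Median pileup was equal on both sides in all 7 rats (exact permutation p = 1), at 6, 5 and 5 tags in sham rats and 9, 8, 6 and 9 in stimulated rats. These p-values are two-sided over 7 rats, with Benjamini-Hochberg adjustment over 6 measures. The smallest possible p is 0.0156 where no rat has a difference of 0. Differences of 0 raise that limit for fold and fix the p-value for pileup. Neither measure could therefore pass over whole lists, and no absence of a difference is read from them.

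A −log10 q of 3 or more was reached by 42.0%, 58.5% and 62.4% of the sham entries here. In stimulated rats 17.4%, 75.6%, 18.7% and 68.7% reached it. The difference from the other autosomes averaged 0.425 points (SD 1.41, higher in 4 of 7 rats, exact permutation p = 0.484, adjusted p = 0.75). Restricted to these peaks, the 5 chromosomes held 26.0%, 25.9% and 25.0% of the sham lists and 17.7%, 24.6%, 23.4% and 24.1% of the stimulated lists. Chromosomes 2 and 18 then separated the groups, and chromosomes 13, 16 and 17 did not. On chromosomes 16 and 17 the stimulated means, 3.76% and 3.83%, were then above the sham means of 3.66% and 3.68%.

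Peaks were slightly narrower here in 6 of 7 rats. Mean width was 183, 178 and 172 bp in sham rats, against 188, 186 and 181 bp on the other autosomes. In stimulated rats it was 187, 188, 164 and 190 bp against 187, 189, 168 and 191 bp. The mean difference of −4.06 bp (SD 3.53, n = 7, exact permutation p = 0.0312) did not pass the adjustment (adjusted p = 0.188).

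The share of intervals that met an interval of another rat was 59.0%, 65.5% and 70.8% in sham rats and 5.08%, 39.2%, 10.4% and 56.3% in stimulated rats. It differed from the other autosomes by 0.220 points on average (SD 2.51, higher in 3 of 7 rats, exact permutation p = 0.859, adjusted p = 1). An interval within 10 kb in the same list was found for 29.9%, 17.6% and 15.6% in sham rats and 19.3%, 61.1%, 3.24% and 44.8% in stimulated rats. That differed by −0.907 points (SD 2.09, lower in 4 of 7 rats, exact permutation p = 0.344, adjusted p = 0.75). None of the 6 measures passed the test over whole lists, where fold and pileup could not pass.

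Among the strongest peaks, width, sharing and close neighbours were lower on these chromosomes than on the rest in all 7 rats. Equal lists held 2677 entries, the whole autosomal list of stimulated rat 3, so no strongest peaks were selected in that rat. Its width difference, −4.09 bp, was that of its full list. In equal lists, peaks here were narrower in all 7 rats, with differences of −52.3 to −0.801 bp (mean −27.2 bp, SD 20.4, exact permutation p = 0.0156, adjusted p = 0.0312). They met another rat's peak less often in all 7 (mean −5.02 points, SD 4.31). They had a close neighbour less often in all 7 (mean −4.53 points, SD 2.04), with the same exact permutation p and adjusted p. Both measures depend on how many peaks lie on the chromosomes, the value that chose them. In equal lists the chromosomes held 27.8%, 28.8% and 25.6% of sham entries and 19.9%, 22.2%, 21.9% and 22.9% of stimulated entries. Sharing also counts an overlap for both rats, so its 7 values are not independent. Nothing is read from the p-values of sharing and close neighbours. Raised background was also less frequent among the strongest peaks here than on the other autosomes in 6 of 7 rats. In sham rats it marked 9.29%, 7.26% and 3.50% here against 21.5%, 21.0% and 13.4% elsewhere, and in stimulated rat 1, the exception, 13.5% against 10.7%.

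With those entries left out before equal lists of 2584 were taken, the differences shrank. Width differed by −6.82 bp (SD 4.34, lower in 7 of 7 rats, exact permutation p = 0.0156, adjusted p = 0.0938). Sharing differed by −1.33 points (lower in 6 of 7 rats, exact permutation p = 0.141, adjusted p = 0.422) and close neighbours by −0.562 points (lower in 4 of 7 rats, exact permutation p = 0.766, adjusted p = 1). None passed the adjustment.

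**Figure D4:**
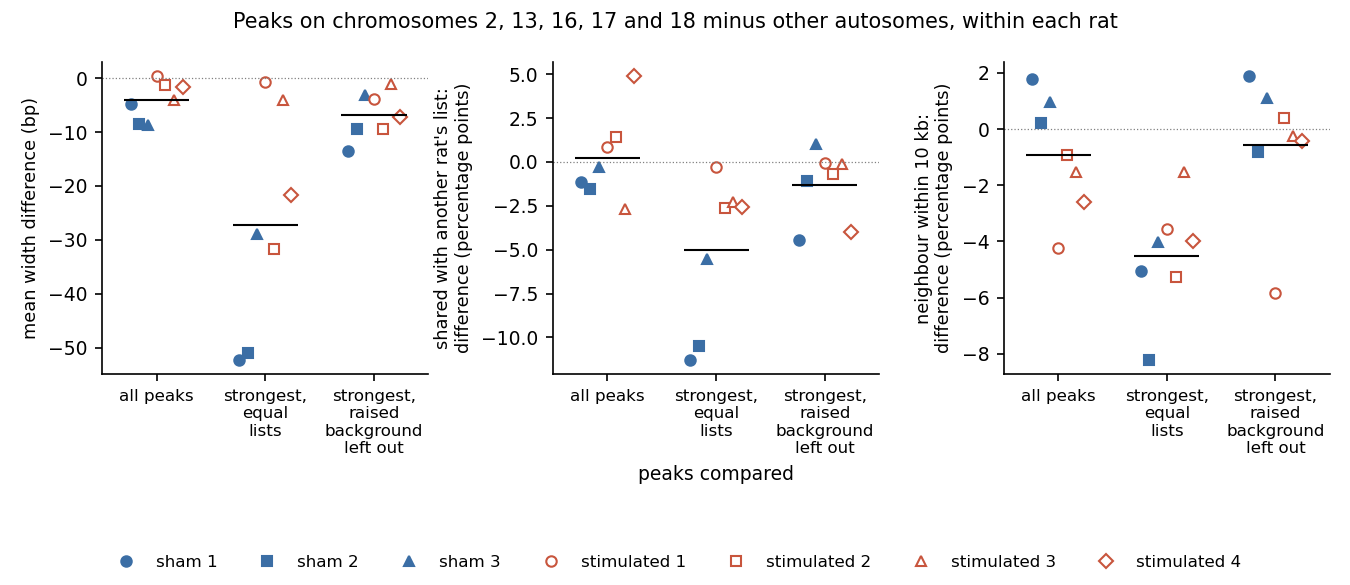
Peaks on the 5 chromosomes minus peaks on the other autosomes within each rat, for mean width (bp), share of peaks met by another rat (percentage points) and share with a neighbour within 10 kb (percentage points), on the y axes. The x axis gives the peaks compared, points are rats and horizontal lines means over 7 rats. Equal lists of the strongest peaks lie below 0 in all 7 rats on each measure, by 27.2 bp, 5.02 points and 4.53 points on average, and these means lie nearer to 0 once entries on raised background are left out.

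Peaks that overlapped were merged across the 7 lists into 42092 regions on the 5 chromosomes. Most, 30321 (72.0%), came from 1 rat, as did 74.1% on the other autosomes. A further 8459 were seen in 2 rats, 2263 in 3, 769 in 4, 271 in 5, 9 in 6 and none in 7. Stimulated rats 2 and 4 shared 7271 regions, of which 4583 (63.0%) had no sham peak, against 64.7% on the other autosomes. The sham libraries were shallower, and the part of depth in this count was not tested.

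All 3 sham rats had a peak in 343 regions, and most of these were present after stimulation in the longest lists. Stimulated rat 2 had a peak in 327 of them (95.3%) and stimulated rat 4 in 276 (80.5%), against 95.2% and 84.8% on the other autosomes. Stimulated rat 3 had a peak in 8 and stimulated rat 1 in 1. By chromosome the number was 137, 46, 44, 68 and 48 on 2, 13, 16, 17 and 18, and stimulated rat 2 had between 91.7% (chromosome 18) and 98.5% (chromosome 17) of them.

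Recurrent sham sites in the lower windows were also called in the longest stimulated lists. The 72 windows held 117 of the 343 regions, and stimulated rat 2 had a peak in 114 and stimulated rat 4 in 97 of the 117. These windows were picked for a larger sham share, so nothing is read from the 117. The other windows held 226 such regions, and stimulated rats 2 and 4 had peaks in 213 and 179 of them. Presence in the long lists was thus not particular to the lower windows. In chr17:59000001-60000000, 27 of 123 regions were common to the sham rats, and stimulated rats 2 and 4 had peaks in 26 and 23 of the 27. The windows took a smaller share of the long lists while most of their recurrent peaks were present in them.

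The strongest sham peaks were found again more often than the rest. Sham intervals of the 5 chromosomes were ranked by p-value into 4 groups of about equal size. For sham rat 2, stimulated rat 2 met 49.0%, 46.2%, 50.0% and 63.0% from the weakest group to the strongest, and stimulated rat 4 met 33.3%, 28.3%, 29.9% and 45.6%. The middle groups thus did not rank by strength, and only the strongest stood above the other 3 for every sham rat. For sham rats 1 and 3 the strongest group was met in 59.2% and 65.6% by stimulated rat 2. Stimulated rat 1 met at most 0.220% of any group. Rank by p-value and recurrence both come from the deposited lists, and no test was made of this difference.

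**Figure D5:**
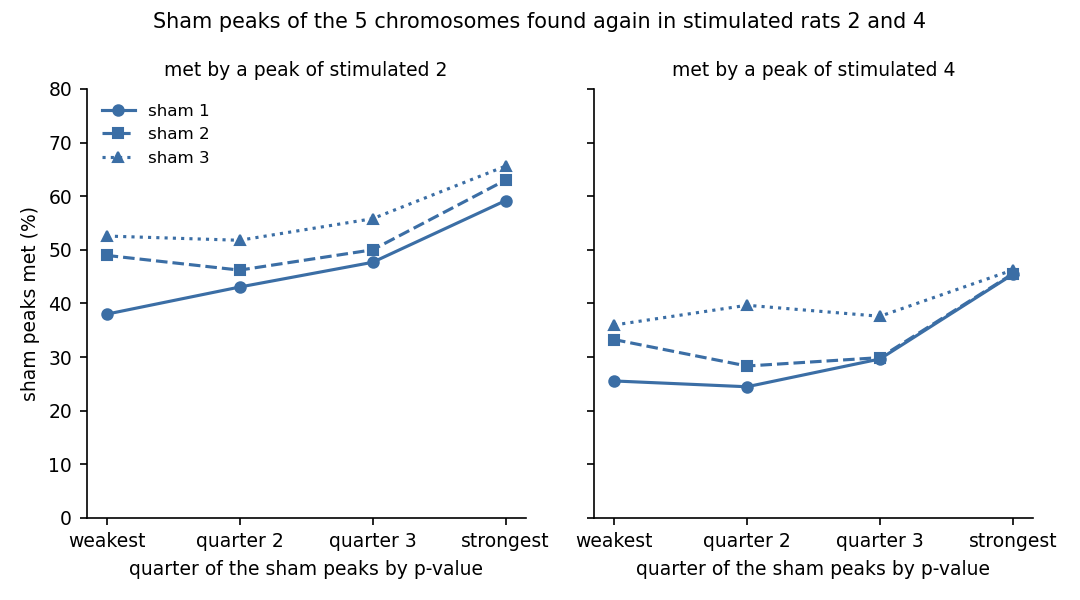
Share of sham intervals on the 5 chromosomes that met a peak of stimulated rat 2 (left) or 4 (right) on the y axis (percent), in 4 groups ranked by p-value on the x axis. Lines join the groups of each sham rat. The strongest group is highest for all 3 sham rats, at 59.2% to 65.6% on the left and 45.4% to 46.2% on the right.

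The strongest site lay on chromosome 2 at chr2:134264702-134264988, 287 bp wide. It was called in all 3 sham rats at 19.4-, 33.6- and 24.6-fold with pileups of 32, 50 and 35 tags. In stimulated rats 2, 3 and 4 it stood at 9.68-, 7.50- and 13.9-fold with 22, 13 and 44 tags, and it was not called in stimulated rat 1. It had the highest fold of these chromosomes in all 3 sham rats and in stimulated rat 3. Fold values belong to their own list, whose depth and input differ, so the lower values after stimulation are not read as a change.

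Another 8 regions were seen in 6 rats. A pair on chromosome 17 lay near each other, at chr17:36127468-36127904 and chr17:36153449-36153853. The first had 10.6-, 5.93- and 11.6-fold in sham rats and 10.9-, 5.07- and 10.5-fold in stimulated rats 2 to 4. In the second, fold ranged from 4.61 to 8.82 over the same rats. On chromosome 2, chr2:75972509-75973018 ranged from 4.17- to 13.5-fold and chr2:191636386-191636671 from 4.12- to 7.70-fold. None of these 4 was called in stimulated rat 1.

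The most widely shared region of each of the other chromosomes was called in 5 or 6 rats. On chromosome 16, chr16:21983129-21983876 was called in 6 rats, stimulated rat 1 among them and stimulated rat 3 not, at 2.49- to 10.3-fold. On chromosome 13, chr13:109591826-109592285 was called in 5 rats at 6.52- to 6.95-fold. On chromosome 18, chr18:56916687-56917842 was called in 5 rats at 6.47- to 10.2-fold over 1156 bp. Stimulated rats 1 and 3 lacked both.

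Regions called in every sham list and absent from every stimulated one numbered 10, 4 on chromosome 2, 2 on 13, 1 on 16, none on 17 and 3 on 18. Such regions made up 0.0276% of the 174096 autosomal regions. The highest by lowest fold was chr2:83741501-83741712, at 5.41-, 5.75- and 5.86-fold with 6 tags in each sham rat. The next were chr2:134321251-134321469 at 6.95-, 8.21- and 5.02-fold, chr18:37697819-37698037, chr2:166393087-166393259 and chr18:32870796-32871037. Pileups in the 10 regions were 3 to 9 tags, 1 of the 10 lay in a lower window and none in a crowded one. The reverse, a region called in every stimulated list and absent from every sham one, was not found, where 0.00345% of autosomal regions were of this kind. Without stimulated rat 2 the first count was 67 and without stimulated rat 4 it was 16, and without sham rats 1, 2 and 3 it was 46, 149 and 198.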

How the data were processed

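MBD3 ChIP-seq peak lists of 3 sham-operated and 4 stimulated rats were used, 1 rat per list. The members, lists, windows and comparisons were chosen with earlier results of these data known. MACS2 2.1.0.20141030, Bowtie 1.0.0 and cutadapt 1.7.1 are listed in the submitters' processing notes. Per the file headers, peaks were called per rat against the group's input with tags extended to 150 bp, 1 tag kept per position, sub-summits reported and a q cutoff of 0.1. With the genome build not given in the sources used here, no gene or sequence was assigned, and coordinates are those of the lists, counted from 1. The deposited pileup is a signal in tags, not scaled between libraries. The deposited p and q values are on the −log10 scale. Fold enrichment as deposited by the authors is the ratio of the summit's pileup over the local background, after 1 is added to both. These values rank and describe peaks within their own list.

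Entries served for shares, windows and strength, and distinct intervals for widths, overlaps (at least 1 bp), neighbours and regions. The 6 within-rat measures were tested by exact sign-flip permutation over 128 sign patterns. Scripts ran on Python 3.11.15 with numpy 2.4.6, pandas 2.3.3 and scipy 1.17.1, and overlaps were checked on simulated intervals against bedtools 2.31.1. Named by rule were the 6 lower and 4 higher windows with the largest difference of mean share, deserts and crowded windows, up to 5 regions of each class by lowest fold, the region in most rats on each chromosome, and the 10 Mb segments with the highest and lowest ratio on each chromosome. Alternatives set out at the start were another background of autosomes, a −log10 q of at least 3, equal lists, exchanged units, stricter overlap, wider neighbourhoods, other windows, merging across gaps and leaving out each rat. Chosen after seeing these values were crowded windows, chromosome 2 or raised background left out, stimulated rats 2 and 4 alone, window removal, and the groups ranked by p-value.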

Additional observations from a re-analysis of the deposited data

Results flagged for a closer look

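The difference between these chromosomes and the other autosomes in the share of peaks at a −log10 q of at least 3 had opposite signs in the groups. It was below 0 in all 3 sham rats (−1.11, −0.651 and −0.424 points) and above 0 in all 4 stimulated rats (0.0886, 0.534, 1.66 and 2.88 points), with a sham minus stimulated difference of −2.02 points. Close neighbours showed the reverse, at 1.77, 0.219 and 0.956 points in sham rats and −4.24, −0.920, −1.53 and −2.60 points in stimulated rats, a difference of 3.30 points. Neither difference between groups was tested, and depth and input differ between the groups in the same way. The share with a close neighbour also depends on peak density, and the chromosomes were chosen by their share of peaks. Peaks per Mb were higher here than elsewhere in all 3 sham rats and stimulated rat 2, and lower in stimulated rats 1, 3 and 4. The signs of the close neighbours are thus not separate from that choice, and nothing is read from them.

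Of 23 measures compared among the 4 stimulated rats, 2 had a single rat far away from the others, and chance flags about 1 in 20. Mean peak width on these chromosomes was 163.7 bp in stimulated rat 3, with 187 to 190 bp in the other 3. Raised background marked 6.81% of the entries of stimulated rat 1, with 1.02% to 1.64% in the other 3.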

How the results depend on the processing

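The within-rat measures of fold, pileup, −log10 q, width, sharing and neighbours passed no test outside the equal lists of strongest peaks. In those lists width (−27.2 bp), sharing (−5.02 points) and neighbours (−4.53 points) passed. Sharing and neighbours depend on the number of peaks, which chose the chromosomes, so nothing is read from their p-values. Directions of small differences turned. Fold became −0.0058 (log2) without chromosomes 8, 10, 12, 19 and 20 in the rest, −0.040 in equal lists and −0.028 in equal lists without raised background. The −log10 q share became −0.0360, −0.864 and −0.271 points under the same 3 settings. Sharing became −0.0352 points with the smaller rest, −0.322 at a −log10 q of at least 3, −0.276 without crowded windows and −1.33 in equal lists without raised background, and ranged from −0.898 to 0.704 with 1 rat left out, below 0 without stimulated rat 2 or 4. Neighbours became 0.118 points at a −log10 q of at least 3 and 0.173 without chromosome 2. Windows lower in every stimulated rat numbered 30 and higher 7 at 5 Mb, 18 and 11 in equal lists, 113 and 71 for stimulated rats 2 and 4 alone, and 78 to 134 and 30 to 51 with 1 rat left out. Higher windows numbered 5 at that q. With 1 rat left out, sham-only regions ranged from 10 to 198 and stimulated-only regions from 0 to 6, since the rule then asks for fewer lists. Deserts numbered 23 to 27 windows and crowded windows 2 to 4 under every setting run. The window chr17:91000001-92000000 was not crowded without stimulated rat 1 or 3. Windows with few peaks limit what the short lists of stimulated rats 1 and 3 can show. No paired analysis was possible because the rats of the groups are different animals whose labels share no numbers.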
